A study of Mus musculus with 4 samples.

Results

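Insertions and deletions (indels) whose net length is a multiple of 3 bases were examined in the exomes of 4 mouse leukaemia samples. A triplet indel, as such a change is called here, was kept when it lay on an autosome and 2 variant callers, SpeedSeq and VarScan2, listed it at the same position with the same alleles after shared bases were trimmed. Each caller had to give a depth of at least 10 reads, at least 3 variant reads and a variant fraction of at least 10%, and SpeedSeq a quality of at least 20. By these rules 810 distinct triplet indels were found among 7033 distinct autosomal indels, or 11.5%. Single samples held 440, 430, 421 and 365 of them in replicates 1 to 4.

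The 4 samples hold c-Kit+ leukaemia cells taken from bone marrow when E2-KO mice were moribund, a genotype which the series title gives as Nras-G12D with Ezh2 KO, on a background labelled C57BL/6. Ezh2 is the methyltransferase of polycomb repressive complex 2, and Nras-G12D is an activated RAS. All 4 samples are of this one group, so every sample carried both alleles and there was no untreated, wild-type or matched normal sample to show which indels the mice inherited. The sources used here do not give the age of the mice, the driver of the Ezh2 deletion or whether each sample was 1 animal, and replicate numbers are only names. Exome DNA gives no expression, so the c-Kit+ label could not be checked, and no triplet indel lay in Nras or Ezh2.

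Inside a coding exon, an indel of 3, 6 or 9 bases adds or removes whole codons and leaves the reading frame after it intact, whereas an indel of any other length shifts the frame. Outside coding exons its length has no such meaning, and exome capture also reads the introns beside exons. Tandem repeats of short units, such as CAG, are known to gain and lose copies. Exon models were not used here, so each triplet indel was placed only within or outside a protein-coding gene body, and whether it changes a protein was not determined.

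The following sequences were chosen because the results below turn on them: 4 indels in leukaemia or repeat-bearing genes, 1 deletion found at a high and 2 at an intermediate fraction in every sample, 1 insertion at a high fraction with no substitution near it, a pair from cytochrome P450 genes of chromosome 19, and the longest deletion and insertion. Each is the plus strand of mm10 (GRCm38), as the deposited calls give it, from 5′ to 3′. Capitals mark the deleted or inserted bases, and the coordinates are those of the reference bases shown.
Foxp2, 6 bases inserted, chr6:15378004-15378020: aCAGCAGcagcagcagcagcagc
Kmt2a, 12 bases deleted, chr9:44808898-44808935: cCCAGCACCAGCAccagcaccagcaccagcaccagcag
Idh2, 6 bases deleted, chr7:80098332-80098351: cCCAGGGccagggccagggc
Kit, 3 bases deleted, chr5:75640433-75640441: tGGCggcga
Rbm28, 3 bases deleted, chr6:29138484-29138494: aTCTtcttctg
Cherp, 6 bases deleted, chr8:72462034-72462059: tTGGACCtggacctggacctggacct
Ube2e3, 3 bases deleted, chr2:78872522-78872527: aTTTga
Tmem209, 9 bases inserted, chr6:30505670-30505672: aCTCACTGGGcg
Cyp2c29, 3 bases deleted, chr19:39330235-39330252: cTTTtttttttttctagg
Cyp2c23, 9 bases deleted, chr19:44015130-44015140: aGGAGTCACCg
Arhgef12, 33 bases deleted, chr9:42989888-42989922: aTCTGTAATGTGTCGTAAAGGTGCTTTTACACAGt
Sfi1, 18 bases inserted, chr11:3153383-3153387: cATCTTCCCAAAGCCAGTGaacg
In Foxp2, Kmt2a, Idh2, Kit, Rbm28 and Cherp the reference carries further copies of the changed unit directly after it. In Tmem209, Cyp2c23 and Arhgef12 it carries none.

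Triplet indels made up 12.6%, 11.6%, 12.04% and 12.9% of all confident indels in replicates 1 to 4, a mean of 12.3% ± 0.58 (SD, n = 4). Most other indels were of 1 base, at 2073, 2252, 2128 and 1646 per sample. Among indels of 2 bases or more the triplet share was 30.8%, 29.4%, 30.7% and 30.8%. No sample stood apart in the share of all confident indels. In the share among indels of 2 bases or more, replicate 2 was the low sample at 29.4%, and the other samples lay between 30.7% and 30.8%.

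Within the triplet indels, counts declined with length but not evenly. Of the 810 sites, 480 were of 3 bases (59.3%), 163 of 6, 59 of 9, 56 of 12 and 52 of 15 or more. Indels of 6 bases numbered 83, 94, 75 and 73 per sample, against 85, 81, 78 and 76 of 5 bases and 45, 41, 45 and 33 of 7 bases. Lengths 5 and 6 therefore overlapped between samples, while every sample held more 6-base than 7-base indels. Indels of 12 bases were counted 34, 32, 22 and 29 times, more in every sample than those of 11 bases (22, 25, 16 and 16) or 13 bases (5, 9, 7 and 8). Lengths 9 and 15 formed no such peak: 9-base indels averaged 32.5 ± 1.73, between 43.3 ± 4.65 at 8 bases and 22.3 ± 3.77 at 10 bases (SD, n = 4). Indels of 18 bases, counted 13, 8, 10 and 4 times, outnumbered those of 17 bases (3 in every sample). They also outnumbered those of 19 bases (4, 4, 3 and 4), except in replicate 4, where the counts were equal.

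**Figure D1:**
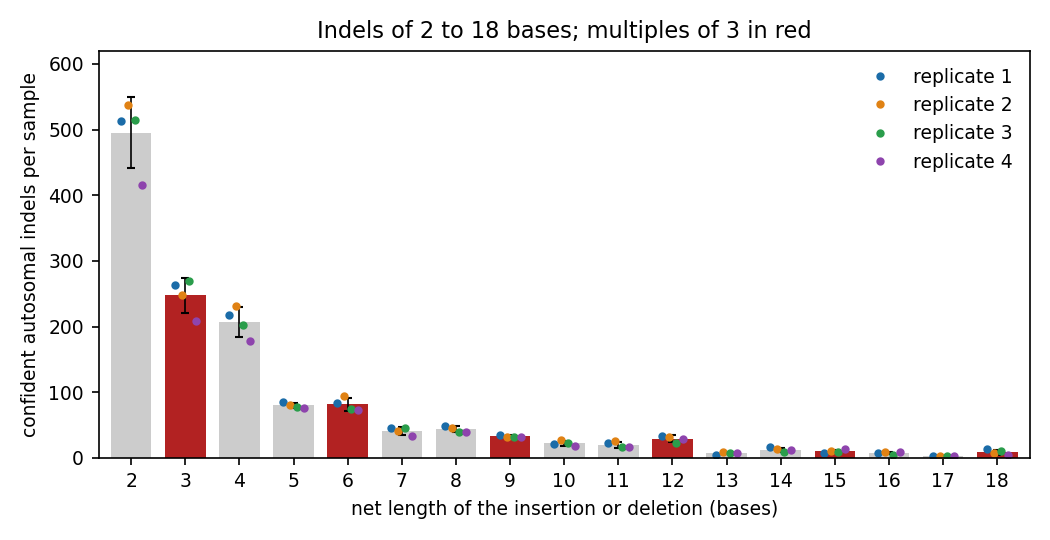
Number of confident autosomal indels per sample (vertical axis) by net length in bases (horizontal axis), for lengths 2 to 18. Bars are means over the 4 samples with SD, points are single samples and red bars are multiples of 3; the 12-base bar (29.3) stands above those at 11 (19.8) and 13 bases (7.25).

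Deletions were 453 of the 810 sites (55.9%) and insertions 357. Per sample, deletions made up 57.7%, 56.5%, 59.1% and 52.3% of triplet indels, a mean of 56.4% ± 2.94 (SD, n = 4), and 57.6% ± 0.79 of the other indels. The difference, triplet minus other, was -1.15 percentage points ± 3.38 and had no common sign across samples. The longest deletion spanned 33 bases and the longest insertion 18. All 810 changes were free of substituted bases, which the rule required, since VarScan2's indels are written without any.

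The changed bases themselves fell into 4 kinds of repeat. In 392 sites (48.4%) the shortest repeating unit of the inserted or deleted sequence was 3 bases, as in the CAG of Foxp2. In 261 sites (32.2%) it was longer, in 132 (16.3%) it was a single base, as in the T run of Cyp2c29, and in 25 it was 2 bases. A copy of the same unit adjoined the change in the reference at 444 sites (54.8%), which included 130 of the 132 single-base sites but 59 of the 261 with a longer unit. Among the 480 indels of exactly 3 bases, grouped with rotations and the opposite strand as one, AAG (CTT) was the most frequent at 105 sites, followed by AAA (TTT) at 88, AGG (CCT) at 67 and AAC (GTT) at 56. AGC, the class that holds the CAG of glutamine repeats and the GCT of alanine repeats, accounted for 32. CCG accounted for 12 and ACG for 11, and neither had a site in all 4 samples.

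Zygosity was read from the fraction of reads that carried the indel: about 50% for a variant on 1 of 2 chromosomes and close to 100% for one on both. A boundary of 65% was used, with fractions at or above it called upper-range and the rest lower-range. At the median depth of 34 reads, an exact 95% interval around 50% runs from 32.4% to 67.6%, and such intervals cover counting error only. Upper-range triplet indels numbered 113 of 440 (25.7%), 99 of 430 (23.0%), 113 of 421 (26.8%) and 184 of 365 (50.4%) in replicates 1 to 4. Replicate 4 was high and the other samples were close to each other. Single-nucleotide variants (SNVs) kept by the same rules were upper-range in 24.2%, 24.0%, 27.7% and 53.4%, again with replicate 4 high.

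Lower-range triplet indels at a depth of 20 or more had median fractions of 40.8%, 41.1%, 34.8% and 41.6%. Replicate 3 was the low sample, and its upper-range median of 76.3% was also below the 94.5%, 93.0% and 95.7% of replicates 1, 2 and 4. Its SNVs were low in the same way, with medians of 38.1% in the lower range and 80.4% in the upper range. What sets the level of replicate 3 was not tested. In every sample the lower-range triplet indels had a lower median than the SNVs (45.5%, 46.2%, 38.1% and 45.5%), with a mean difference, triplet minus SNV, of -4.22 percentage points ± 0.80 (SD, n = 4). The 4 sample differences were tested with exact sign-flip permutation, 2-sided, which gave p = 0.125, the smallest value that 4 samples allow, so no comparison between classes of variant could pass 0.05. Of 39 such comparisons 24 reached that smallest value, and Benjamini-Hochberg adjustment over all 39 gave 0.203 at the lowest.

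Against the other indels the zygosity of triplet indels had no stable difference. Their upper-range share was above that of all non-triplet indels by 3.04 percentage points ± 2.14, in 4 of 4 samples (p = 0.125, exact sign-flip permutation test). Compared with non-triplet indels of 2 bases or more, the difference was -1.46 ± 1.71, and with VarScan2's fractions -1.04 ± 3.17. The lower-range median differed from that of one-base indels by 1.11 percentage points ± 1.77, with 3 of 4 samples higher (p = 0.375, exact sign-flip permutation test).

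The fraction itself depended on the caller, with the smallest gap at 3 bases. SpeedSeq's fraction, the one used throughout unless VarScan2 is named, exceeded VarScan2's by a median of 2.56 percentage points ± 0.53 at 3 bases, 4.51 ± 0.46 at 6 bases, 6.90 ± 1.24 at 9 bases, 10.3 ± 5.96 at 12 bases and 8.37 ± 2.13 at 15 or more (means of the sample medians, SD, n = 4). At 12 bases replicate 4 had the widest gap, 19.3, against 6.75 to 7.81 in the others. Of the 12-base indels, SpeedSeq placed 14, 10, 7 and 17 in the upper range in replicates 1 to 4 and VarScan2 placed 7, 2, 5 and 7 there. At 3 bases SpeedSeq placed 60, 50, 68 and 94 in the upper range and VarScan2 60, 50, 51 and 96. The sites were not all the same ones: 10, 8, 20 and 9 were upper-range by SpeedSeq only and 10, 8, 3 and 11 by VarScan2 only. The deletion in Idh2 shows the gap at a single site: SpeedSeq gave 14 of 14 variant reads in replicate 3 and 18 of 18 in replicate 4, and VarScan2 gave 66.7% and 69.2%. Variant reads came from a single strand at 20.6% ± 3.43 of the 3-base indels, 29.1% ± 6.63 at 6 bases, 20.9% ± 6.03 at 9, 32.8% ± 11.1 at 12 and 37.9% ± 4.67 at 15 or more, with no steady order by length.

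The callers also had to list the same change. Of the triplet indels that met the SpeedSeq limits, VarScan2 listed 82.7%, 81.6%, 84.1% and 80.3% with the same alleles, a difference from the other indels of -0.91 percentage points ± 0.82, lower in 4 of 4 samples (p = 0.125, exact sign-flip permutation test). Of the 93, 98, 80 and 91 that were not matched, 49, 51, 58 and 42 had a VarScan2 call of the same net length within 10 bases, and 66, 64, 66 and 54 combined the indel with a substitution in SpeedSeq's allele. The triplet indels described here are thus changes that both callers wrote the same way.

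Of the 810 sites, 327 (40.4%) were confident in 1 sample, 223 (27.5%) in 2, 157 (19.4%) in 3 and 103 (12.7%) in all 4. The exact 95% interval of the all-sample share, 10.5% to 15.2%, held the 11.3% found for non-triplet indels and lay below the 18.2% found for SNVs. That interval treats linked sites as independent, so it is no test between classes. Depth also differed, with a mean of the sample medians of 52.25 reads for SNVs and 35.1 for triplet indels. Within samples the share found in all 4 was 23.4%, 24.0%, 24.5% and 28.2%, above that of non-triplet indels by 1.16 percentage points ± 1.25 (p = 0.25, exact sign-flip permutation test). Within samples, triplet indels confident nowhere else made up 20%, 16.05%, 28.3% and 13.97%, and the difference from non-triplet indels was -5.59 percentage points ± 1.77, lower in 4 of 4 samples (p = 0.125, exact sign-flip permutation test). Against non-triplet indels of 2 bases or more the difference was -2.5 ± 2.25, lower in 3 of 4 samples. Replicates 1 and 2 shared the most, 263 of the 607 sites found in either (43.3%), and the other 5 pairs shared between 31.3% and 37.5%. SNVs gave the same closest pair, at 57.5% against 38.5% to 41.7%.

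Being shared did not mean having the same zygosity. Among the 483 sites found in 2 or more samples, 312 (64.6%) kept one range in each of their samples and 171 did not. Of the 103 sites found in all 4, 24 were lower-range throughout, 15 were upper-range throughout and 64 were mixed. The most frequent mixed patterns were lower in replicates 1 and 2 with upper in 3 and 4 (17 sites), lower in replicate 2 alone (11) and lower in replicate 3 alone (10). Median fractions over these 103 sites were 55.6%, 50%, 64.7% and 92.5% in replicates 1 to 4.

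**Figure D2:**
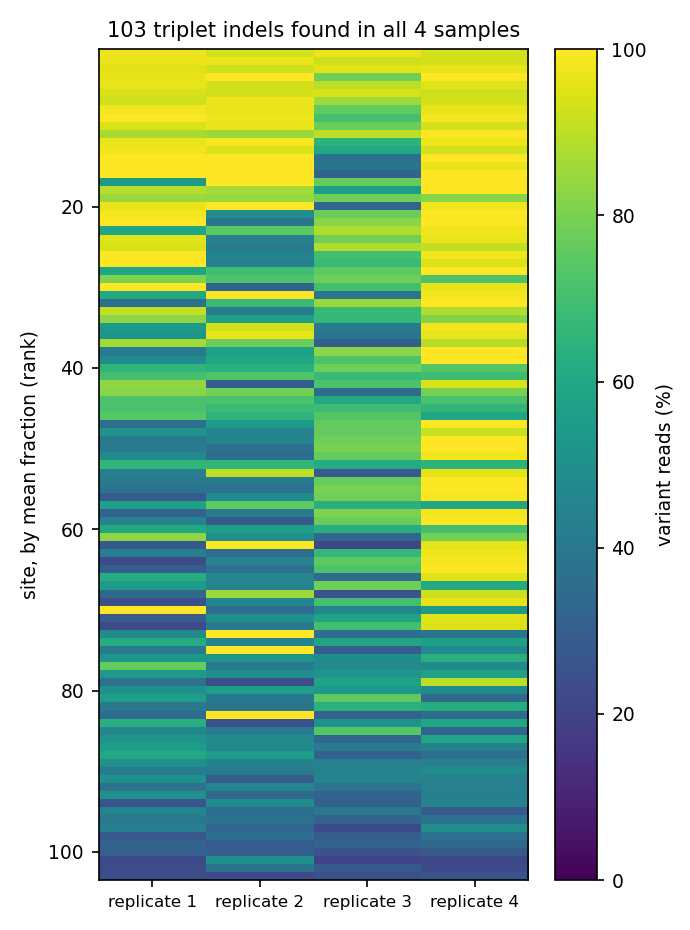
Variant-read fraction (colour, in percent) of the 103 triplet indels confident in all 4 samples; each row is a site, ranked by its mean fraction, and each column a replicate. Replicate 4 is at or above 65% for 68 of the sites, against 41, 41 and 51 in replicates 1, 2 and 3, and 15 rows are upper-range in every column.

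Sites at a high fraction in every sample could be followed read by read. The TCT deletion in Rbm28, which encodes a nucleolar RNA-binding protein, was carried by 61 of 63 reads, 58 of 58, 51 of 65 and 67 of 67 in replicates 1 to 4. An AGA insertion in Bpnt1, a nucleotidase, stood at 98.3%, 96.7%, 75.5% and 96.6%, although the SNVs around it had medians of 48.8% in replicate 2 and 50% in replicate 4. In both, replicate 3 was the low sample, at 78.5% for Rbm28, and the other samples were higher. Replicate 3 was lowest for the 9-base insertion in Tmem209 too, with 57 of 57, 38 of 39, 41 of 58 and 52 of 53 reads. VarScan2 gave this insertion 63.5% in replicate 3, in the lower range.

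Sites at an intermediate fraction in every sample were likewise named from the deepest of their kind. An AGA insertion in Smim15 stood at 37.9%, 45.6%, 38.2% and 44.0% with 218 to 259 reads per sample, at least 5 times the median depth. An ATT deletion in Lrp1b, of the low-density lipoprotein receptor family, stood at 55.8%, 47.4%, 40.6% and 43.4%, also at very high depth in some sample and with mean mapping qualities of 42.3 to 45.2. The TGGACC deletion in Cherp, whose protein acts in calcium homeostasis of the endoplasmic reticulum, stood at 51.8%, 47.9%, 33.3% and 58.6%. The TTT deletion in Ube2e3, a ubiquitin-conjugating enzyme, was at 45.2%, 36.2%, 39.7% and 28.9%. The samples' exact 95% intervals overlapped for Ube2e3, from 29.8% to 61.3% in replicate 1 and from 16.4% to 44.3% in replicate 4. A pair of insertions in Smtn, the gene of the smooth muscle protein smoothelin, were lower-range in every sample although the SNVs around them had medians of 100% in replicates 1 and 4. One adds TGC and stood at 50%, 29.5%, 45.2% and 43.4%, and the other extends a run of A and stood at 62.6%, 25.0%, 51.4% and 59.4%. VarScan2 placed the A run in the upper range in replicates 1 (77.7%) and 4 (72.4%).

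The genome around a triplet indel was compared with it through SNVs within 50 kb. At least 1 confident SNV of the same sample lay within that distance for 93.4%, 95.6%, 95.2% and 93.4% of triplet indels, against 69.2% ± 2.46 of one-base indels (SD, n = 4). The share exceeded that of all non-triplet indels by 18.3 percentage points ± 1.48 and that of non-triplet indels of 2 bases or more by 3.57 ± 1.31, each in 4 of 4 samples (p = 0.125 for both, exact sign-flip permutation test). Where 3 or more SNVs lay near, the triplet indel was in the same range as their median in 335 of 387, 351 of 392, 336 of 389 and 269 of 318 cases in replicates 1 to 4. These shares, 86.6%, 89.5%, 86.4% and 84.6%, differed from those of non-triplet indels by -3.55 percentage points ± 1.59, lower in 4 of 4 samples (p = 0.125, exact sign-flip permutation test). Most of the mismatches were triplet indels in the lower range among upper-range SNVs, at 30, 27, 50 and 40 per sample, and the reverse occurred 22, 14, 3 and 9 times.

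**Figure D3:**
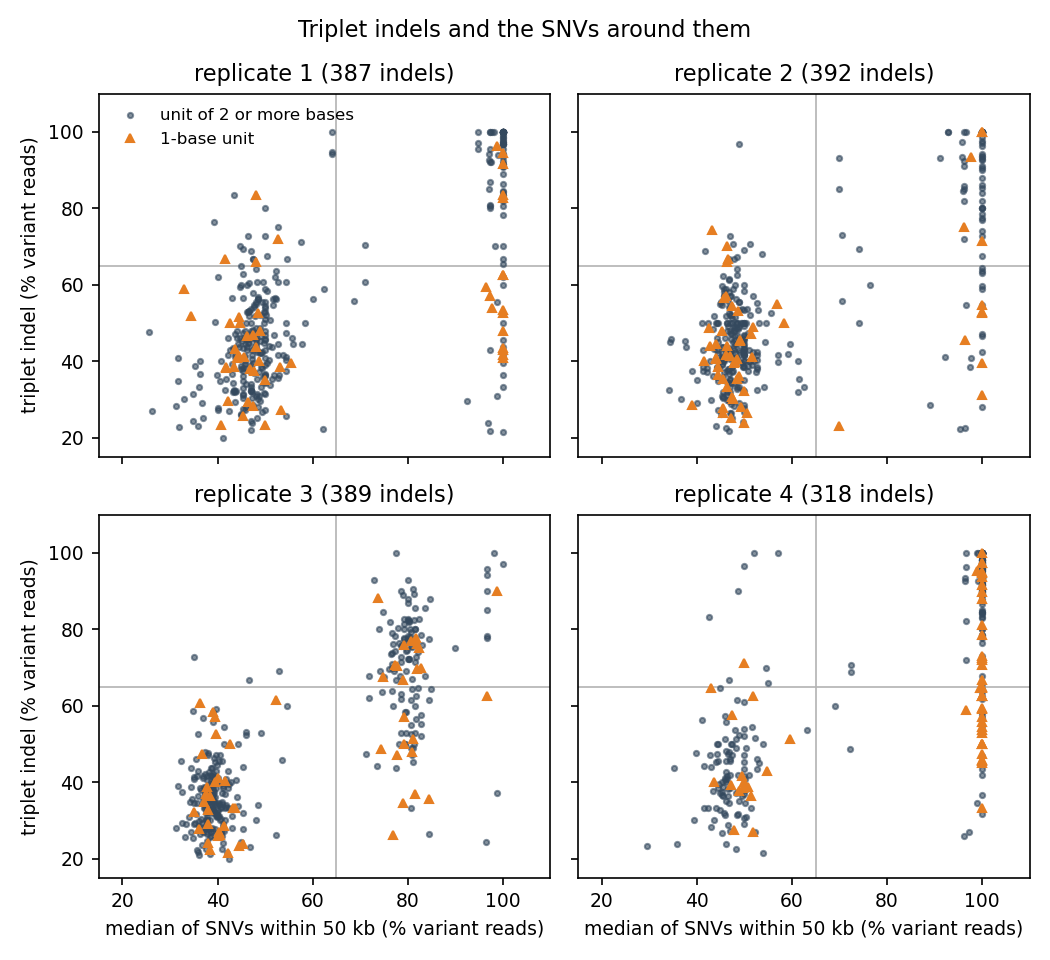
Variant-read fraction of each triplet indel (vertical axis, percent) against the median fraction of the SNVs within 50 kb of it (horizontal axis, percent), for triplet indels with at least 3 such SNVs; 1 panel per replicate, triangles for indels whose changed bases are a single-base run and grey lines at 65%. Most points lie to the lower left or the upper right of both lines, and replicate 3 has its upper group near 80% where the other samples reach 100%.

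The mismatches differed with the repeat unit. Triplet indels with a 3-base unit were in the range of their SNVs in 92.0% ± 1.37 of cases, those with a longer unit in 86.7% ± 3.65 and those with a single-base unit in 72.1% ± 9.62 (SD, n = 4). The few with a 2-base unit were in that range in 83.3%, 90%, 66.7% and 60%, of 6, 10, 15 and 10 cases. The 3-base share was above the single-base share by 21.7, 11.6, 12.8 and 33.7 percentage points in replicates 1 to 4 (p = 0.125, exact sign-flip permutation test). In blocks where the SNV median was 95% or more and the depth 20 or more, 24 of 43 single-base indels were under 65%, as were 20 of 86 with a longer unit and 11 of 116 with a 3-base unit. VarScan2's fractions at the same sites put 13 of 43, 46 of 86 and 14 of 116 under 65%, so the order of the single-base and longer units depended on the caller, and the 3-base unit had the lowest share with both. A site found in several samples is counted once in each.

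**Figure D4:**
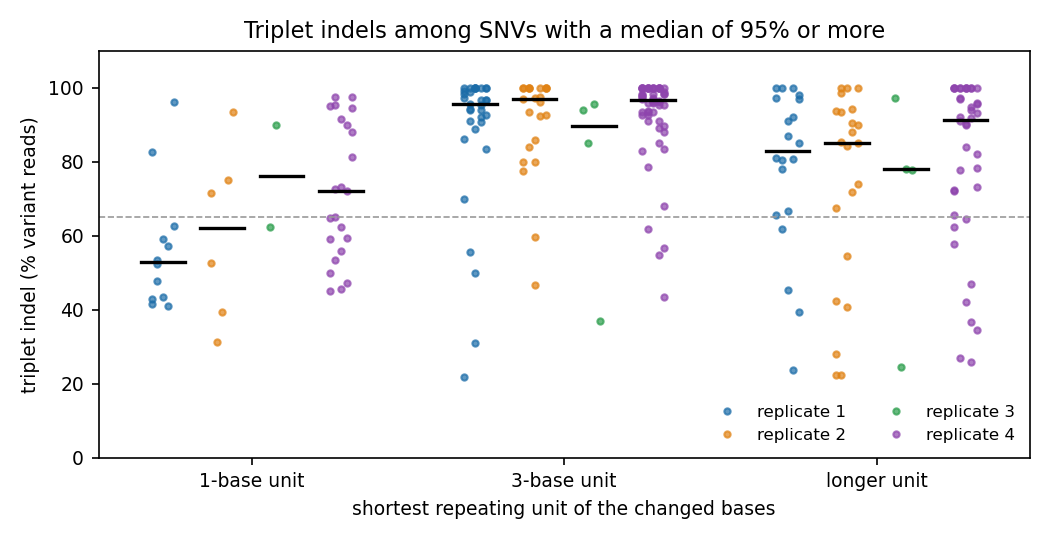
SpeedSeq variant-read fraction (vertical axis, percent) of triplet indels at a depth of 20 or more that lie among SNVs with a median of 95% or more, by the repeat unit of the changed bases; each point is an indel in 1 sample, coloured by replicate, black bars are medians and the dashed line is 65%. The medians of replicates 1 to 4 are 52.9%, 62.2%, 76.3% and 72% for the single-base unit, 89.7% to 96.9% for the 3-base unit and 78.0% to 91.4% for longer units.

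Cytochrome P450 genes on chromosome 19 held both kinds of unit, and the SNV medians around those in Cyp2c23 and Cyp2c29 were 100% in replicate 4. The 9-base deletion in Cyp2c23, with no copy of its unit beside it, was carried by 16 of 40, 13 of 32, 26 of 34 and 29 of 29 reads in replicates 1 to 4. The deletion in the T run of Cyp2c29 was carried by 19 of 82, 32 of 78, 69 of 99 and 106 of 112. By SpeedSeq both were lower-range in replicates 1 and 2 and upper-range in replicates 3 and 4, whereas VarScan2 gave Cyp2c23 55.6% in replicate 3, in the lower range. In replicate 1 the T run stood at 23.2% and Cyp2c23 at 40%, with overlapping exact 95% intervals. A 6-base deletion in an A run of Cyp2c37 stood at 58.8%, 74.2%, 88.2% and 97.4% in replicates 1 to 4. The SNVs around it stood at 32.9%, 43.1%, 73.8% and 100%, so it was above them in replicates 1 to 3. VarScan2 gave it 69.0% in replicate 1, in the upper range, and its mean mapping qualities were 44.1 to 45.7. A TTT insertion into a T run of Cyp2c39, confident in replicates 3 and 4, stood at 35.7% and 64.7% while the SNVs around it stood at 84.4% and 99.5%. VarScan2 gave this insertion 60% and 91.7%, the latter in the upper range like the SNVs of replicate 4.

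A further 42 triplet indels had no confident SNV within 50 kb in any sample where they were confident, and 10 of them were found in all 4. For the rest, the SNVs of the samples without the confident indel were not examined. Of these 10, 5 kept one range in every sample by SpeedSeq: 2 were upper-range, including Tmem209, and 3 were lower-range, including Cherp and Ube2e3. The other 5 were mixed. Among the mixed ones, a CTA deletion in Ehbp1 stood at 54.5%, 100%, 76.3% and 100%, and an AGA deletion in Psma6, a proteasome subunit, at 100%, 44.6%, 69.9% and 98.0%. A 12-base insertion in Tll2, a metalloprotease, stood at 29.2%, 50%, 58.5% and 95.1%.

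Triplet indels were unevenly spread over the autosomes, which was not tested. Chromosome 9 held 109 sites, chromosome 11 held 101 and chromosome 5 held 95, whereas chromosomes 10, 14 and 16 held 2 each. On chromosome 9 the samples carried 24, 46, 84 and 1, and the SNVs there numbered 1710, 2137, 5394 and 103 and the non-triplet indels 150, 226, 541 and 34 in the same order. On chromosome 10, where each sample had 1 triplet indel, non-triplet indels numbered 40, 49, 32 and 39. Chromosome 13 was low in replicate 2 (10, against 33, 34 and 43), chromosome 17 in replicate 3 (4, against 13, 22 and 19), and chromosome 1 was high in replicates 1 and 2 (38 and 42, against 12 and 17). The SNV counts of these chromosomes had the same low or high samples, with 651 on chromosome 13 in replicate 2 against 2024 to 2289 in the others. Over all autosomes there were 14.99, 15.4, 15.6 and 19.8 triplet indels per 1000 SNVs.

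**Figure D5:**
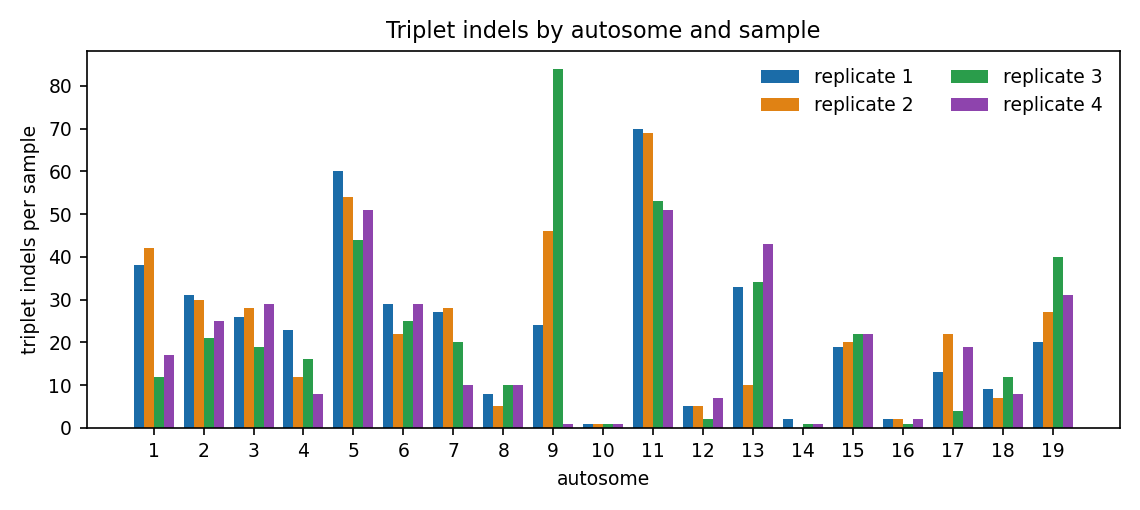
Number of triplet indels (vertical axis) on each autosome (horizontal axis), with 1 bar per replicate. Chromosome 9 ranges from 1 in replicate 4 to 84 in replicate 3, and chromosomes 10, 14 and 16 carry at most 2 in any sample.

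Sites confident in 1 sample were divided by whether the others had any call nearby. Of the 327, 152 had no call of any quality by either caller within 10 bases in the other 3 samples, and these are called private: 34, 26, 86 and 6 in replicates 1 to 4. Replicate 3 held most of them, 50 of its 86 on chromosome 9, and 82 of the 86 lay within 50 kb of an SNV that was also confident in replicate 3 alone. Such an SNV lay within 50 kb of 27 of the 34 private sites of replicate 1, 15 of 26 in replicate 2 and 5 of 6 in replicate 4. Private sites had median fractions of 42.1%, 47.6%, 39.0% and 52.2%, and 21 of the 86 in replicate 3 were upper-range. Those 21 include an AAC deletion in Rpap3 carried by 58 of 65 reads and a TAG deletion in Pfkm, the muscle phosphofructokinase, carried by 42 of 51. Atp2c1, the Golgi calcium pump, held 3 private sites of replicate 3 at 36.7%, 30.1% and 35.1%. The longest deletion, 33 bases in Arhgef12, the gene of a guanine nucleotide exchange factor, was private to replicate 2, with 13 of 26 reads, all 13 from one strand.

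Of the 810 sites 662 (81.7%) lay in a protein-coding gene body, and they fell in 523 of 20665 autosomal protein-coding genes (2.53%). Per sample the share in gene bodies was 78.6%, 85.3%, 83.4% and 80.3%, and differed from that of non-triplet indels by -1.35 percentage points ± 2.08, without a common sign. Gene length and capture coverage, which set how many indels a gene can show, were not adjusted for in the counts that follow.

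Among 40 genes with long amino acid repeats, 2 held a triplet indel. The CAGCAG insertion in Foxp2, a forkhead transcription factor with a long glutamine tract, lies in a reference run of 5 CAG copies and was private to replicate 3, at 11 of 33 reads, all 11 from one strand. Ncoa3, a nuclear receptor coactivator, held a GGC deletion at 31 of 71 reads in replicate 1 and 33 of 81 in replicate 3. It also held a TTT deletion within a run of 18 T, at 9 of 42 reads in replicate 3, all 9 from one strand.

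Of 23 myeloid leukaemia driver genes 4 held one, among them Kit, Asxl1 and Idh2. Idh2, the mitochondrial isocitrate dehydrogenase, lost 1 of 3 copies of CCAGGG on 14 of 14 reads in replicate 3 and 18 of 18 in replicate 4. SpeedSeq also listed this deletion below the depth limit in replicate 1 (8 of 9 reads) and replicate 2 (9 of 9), so it was seen in all 4 samples. Kit, the receptor on which the cells were selected, held a GGC deletion on 16 of 19 reads in replicate 1, which was listed below the limits in replicate 2 (8 of 9) and replicate 4 (6 of 6). A TTG deletion in Kit was carried by 3 of 14 reads in replicate 1 and 8 of 17 in replicate 2, all from one strand. The SNVs around it had medians of 100% in both samples. VarScan2 gave this TTG deletion 42.9% and 72.7%, the latter in the upper range, and also listed it in replicate 4 (3 of 12 reads). A 9-base insertion in Asxl1, a partner of a histone H2A deubiquitinase, stood at 7 of 16 reads in replicate 1 and 13 of 14 in replicate 2, and the SNVs around it at 44.4% and 100%. VarScan2 gave this insertion 46.4% in replicate 2, in the lower range, and also listed it in replicate 4 (8 of 18 reads).

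Of 30 polycomb and chromatin regulator genes 3 held a triplet indel. In Kmt2a, the histone H3 lysine methyltransferase rearranged in leukaemia, 12 bases of a CCAGCA repeat were deleted on 8 of 11 reads in replicate 1 and 10 of 25 in replicate 3. The 10 reads of replicate 3 were all from one strand, and the SNVs around the deletion stood at 46.5% in replicate 1. VarScan2 also listed this deletion in replicate 2 (7 of 24 reads). A TTT insertion in Mtf2, an accessory subunit of polycomb repressive complex 2, was carried by 17 of 43, 32 of 79 and 21 of 64 reads in replicates 1 to 3. Stag1, a cohesin subunit, held 2 sites private to replicate 3, at 28.6% and 33.7% of reads. None of 18 RAS pathway genes and none of 9 genes of branched-chain amino acid metabolism held any. With lists this small, no count was tested against the 2.53% of all genes that held one.

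In all, 121 genes held 2 or more triplet indels, where a site in overlapping genes counts for each. They include 9 overlapping Ugt1a genes, which share the same 2 deletions. Sfi1, which encodes a centrosomal protein, held 21 over 60967 bases of chromosome 11, 7 of them in all 4 samples and 15 of them insertions. An inserted GAT stood at 94.1%, 93.5%, 94.1% and 92.5% with depths of 915, 693, 987 and 831, and the 18-base insertion at 80.5%, 71.9%, 77.8% and 72.1% with depths of 369, 267, 379 and 326. VarScan2 gave the 18-base insertion 55.4%, 48.5%, 50.3% and 48.9%, in the lower range in every sample. The GAT reads had mean mapping qualities of 27.4 to 28.9. These depths are far above the sample medians of 34, 34.5, 41 and 31. Replicate 3 was not the lowest at either site, but it was at 2 other Sfi1 insertions found in all samples, a CAC (92.7%, 97.3%, 85.2% and 93.5%) and a 12-base insertion (85.1%, 84.4%, 78.1% and 82.1%). VarScan2 gave that 12-base insertion 32.4%, 35.7%, 36.5% and 43.3%, with replicate 1 lowest. At the remaining Sfi1 sites found in all samples replicate 3 was not the lowest. These were a CTT insertion (95.5%, 92.4%, 95.7% and 96.2%), another 12-base insertion (87.0%, 85%, 90% and 100%) and a T-run deletion (57.1%, 75%, 62.5% and 58.8%). Itgam, the CD11b integrin of myeloid cells, held 4 sites, none in replicate 4. The TTT deletion in Ppargc1a, a coactivator of mitochondrial genes, lies in a run of 15 T and stood at 72.0%, 71.5%, 60.8% and 71.2%.

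Genes of families with close copies, where short reads may be placed on the wrong copy, were picked by symbol prefix. They held 35 sites in 36 of 3396 genes (1.06%). The prefix Gm, which is not 1 gene family, supplied 984 of the 3396 genes and 9 of the 35 sites. Of these 36 genes, 9 are the overlapping Ugt1a genes, which share 2 sites. The 35 sites included 3 in Vmn2r vomeronasal receptors, 2 in Olfr odorant receptors, 7 in cytochrome P450 genes and 5 in keratin genes. Of the keratin sites, 2 in Krt2 and 2 in Krt75 were private to replicate 3, at 70.8% to 88.0% by SpeedSeq. VarScan2 placed 3 of these 4 under 65%, at 48.4%, 50% and 63.0%. A TCT deletion in Vmn2r115 stood at 71.3%, 68.1%, 69.0% and 65.9% with 811 to 929 reads, whose mean mapping quality lay between 29.5 and 32.5, against a median of 60 for triplet indels. At 27 of the 810 sites the depth was at least 5 times the sample's median in some sample, and 14 of these were in all 4 samples. Without them, 89 sites remained among those found in all 4.

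In all, 12 triplet indels lay in the window from 250 bases before to 50 after a RefSeq gene start, and in each of the 10 windows with a deletion the deleted bases matched the RefSeq reference. The CTC deletion upstream of the histone gene H4c2 is shown with its surroundings because its fraction differed between samples, at 37.5% in replicate 1, 38.8% in replicate 3 and 100% in replicate 4. It lies 174 bases before the start, and the GRCm38 plus strand is given with the deleted bases in capitals.
H4c2, chr13:23756743-23756785: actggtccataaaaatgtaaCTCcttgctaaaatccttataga
The deletion 3 bases before the start of Olfr424, at 44.1% in replicate 1 and 52.7% in replicate 2, removes an ATA.
Olfr424, chr1:174136723-174136765: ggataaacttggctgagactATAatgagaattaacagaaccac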

How the data were processed

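Whole-exome libraries of 4 samples were captured with the Agilent SureSelect XT Mouse All Exon kit and sequenced on a BGISEQ500 as paired reads of 100 bases, per the labels' protocols. The authors deposited, for each sample, a variant file whose quality is a score and whose read counts are per allele, made with freeBayes 0.9.21 within SpeedSeq against UCSC mm10 with each sample called alone, per the file headers. They also deposited a VarScan2 indel file with coverage and reads per allele. The sources used here do not give the VarScan2 version, the aligner or the duplicate handling, and neither file reports positions without a call.

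Shared bases were trimmed, right end first, and indels were matched by chromosome, position and alleles. SpeedSeq's fraction is variant reads over depth. VarScan2's depth is its coverage and its fraction is variant reads over variant plus reference reads. Genes were taken from the RefSeq table of GRCm38.p6 by coordinates, as gene bodies without exons, and promoter sequences from RefSeq's GRCm38 table. Python 3.11.15, numpy 2.4.6, scipy 1.17.1 and pandas 2.3.3 were used, and the matching was tested on simulated calls. Samples were compared through exact sign-flip permutation tests of within-sample differences, 2-sided, whose p-values measure only the spread between these 4 samples. Shares carry exact Clopper-Pearson 95% intervals.

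The genes named are members in the gene lists, up to 8 each of the deepest sites upper-range or lower-range in all 4 samples, the 5 longest deletions and insertions, up to 5 private sites per sample and the 8 genes with the most members. Private-site, Smtn, chromosome 19 and isolated examples beyond that rule were chosen after their values were seen. A few sites that the rule names are not reported here. The members and lists were chosen with earlier results of these data known. Alternatives covered depth, quality, mapping quality, single callers, range boundaries, the class compared, very deep sites and each sample in turn.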

Additional observations from a re-analysis of the deposited data

Results flagged for a closer look

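In 7 of 31 quantities examined, 1 of the 4 samples lay far from the other 3 (Dixon's test at 95%, which chance alone flags in about 1 of 20 groups). Replicate 4 stood apart in its upper-range share, 50.4%, and in its triplet indels per 1000 SNVs, 19.8. Replicate 3 stood apart in the median fraction of its lower-range triplet indels, 34.8%, and of its upper-range ones, 76.3%. Replicate 3 was also the low sample at 3 of the 16 named sites found in all samples: 75.5% at Bpnt1, 78.5% at Rbm28 and 70.7% at Tmem209. These quantities share the same libraries and are not independent of each other.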

How the results depend on the processing

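Of 107 values recomputed under other settings, 92 kept their sign or, for levels and counts, stayed near the reported value, but differences could shrink. The share found in all 4 samples went from 1.16 to 0.02 when the callers were matched by net length within 10 bases, and the upper-range share from 3.04 to 0.27 with SpeedSeq's homozygous genotypes and 0.65 with a quality of at least 100. Differences are triplet minus other indels in percentage points. With a depth of at least 20, the upper-range share turned to -0.51 and the share in gene bodies to 0.38. With a quality of at least 100, the share found in all 4 samples turned to -0.94, the lower-range median against one-base indels to -0.98 and the agreement of the callers to 0.45, and triplet indels made up 12.96% of indels. With SpeedSeq alone the share found in all 4 samples was -1.27. With VarScan2 alone there were 633 triplet indels per sample, 10.8% of indels. With VarScan2's fractions the lower-range median was -0.84 and the upper-range share -1.04. Against non-triplet indels of 2 bases or more, a comparison chosen after seeing the data like the VarScan2 upper-range share, the upper-range share was -1.46, the lower-range median -0.72 and the agreement of the callers 2.16, and triplet indels were 30.4% of indels of that length. The cause of these changes was not tested. The shares with an SNV within 50 kb (3.57 to 18.8) and in the range of those SNVs (-5.52 to -2.47) kept their sign under every setting tried for them. Leaving out each sample in turn changed no direction, with 405 to 430 triplet indels per sample and an upper-range difference of 2.10 to 3.79, but moved some sizes. The share found in all samples ranged from 0.98 to 2.75 (without replicate 3), the lower-range median from 0.38 (without replicate 4) to 1.78 (without replicate 3), the gene-body share from -2.22 (without replicate 2) to -0.63 (without replicate 1) and the agreement of the callers from -1.15 to -0.52 (without replicate 2). Samples could not be paired with each other, because the labels give 1 group and no replicate numbers, so the differences tested are between classes within a sample. At a depth near 34 reads the 65% boundary cannot place every site, and sites below 10 reads in either caller count as not found.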

Other observations

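The longest changes beyond those shown above were mostly covered by few reads. A 27-base deletion in Ghrhr, the receptor for growth hormone-releasing hormone, was carried by 10 of 10 reads in replicate 1 and 14 of 14 in replicate 4, and SpeedSeq listed it below the depth limit in replicate 2 (8 of 8). VarScan2 gave 47.1% and 54.2% in replicates 1 and 4. A 27-base deletion in Dnmbp, a scaffold protein, was carried by 8 of 13 reads in replicate 2 and 12 of 12 in replicate 4. VarScan2 gave it 47.1% and 57.1%, and SpeedSeq listed it below the depth limit in replicate 3 (4 of 7). Another 27-base deletion, in Kmo, of tryptophan breakdown, was carried by 8 of 12 reads in replicate 2, all from one strand. VarScan2 gave this deletion 53.3% there and also listed it in replicate 1 (4 of 12 reads). A 24-base deletion in Fuom, a fucose mutarotase, was carried by 21 of 66 reads in replicate 1. An 18-base insertion in Iars2, a mitochondrial tRNA synthetase, was carried by 9 of 11 reads in replicate 1 and 5 of 11 in replicate 2, all from one strand.

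Genes with several triplet indels differed in how these varied. In 4932438A13Rik, 5 sites were found, and in replicate 4 they stood at 100%, 100%, 67.9%, 90.9% and 100%, while the 4 of them confident in replicates 2 and 3 lay between 27.8% and 58.3% there. In Spata5, a deletion beside a T run stood at 49.0%, 36.8% and 83.0% in replicates 2 to 4 and an insertion into another T run at 39.4%, 24.1% and 73.1%. Its other site, an insertion into a T run private to replicate 4, stood at 47.3% there while the SNVs around it stood at 100%. In Alg9, a mannosyltransferase, the 3 sites were confident in replicates 2 and 3 and lower-range in both.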
